A study of Rattus norvegicus with 28 samples.

Results

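The lysosomal genes described here are 37 rat genes that encode the digestive enzymes, membrane proteins, proton pump subunits and regulators of the lysosome. They were chosen by name and function, and each was read through the array probes whose accession belongs to it. All 37 were found, beside 10220 named genes with a tested probe in all, and 42 of the 17322 probes tested measured them. A single probe measured 32 of the genes, and 2 probes measured each of the other 5. By role they are 11 proteases, 8 glycosidases, 7 genes of lipid and sphingolipid handling, 5 membrane proteins, 4 genes of the proton pump and the lysosomal channel, and 2 regulators.

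The RNA came from the hippocampus of adult male Sprague-Dawley rats, and each of the 14 gene expression arrays held the RNA of 1 rat. Sham rats (n = 2) had the surgery without the injury. TBI rats (n = 3) had a severe parasagittal fluid-percussion traumatic brain injury and no antidepressant, and the study's methods give vehicle to rats that got no drug. The TBI+Imipramine, TBI+Prozac and TBI+Zoloft rats (n = 3 each) had the same injury and an injection of that drug 1 h later, at a dose that the methods give as the same for each drug. All tissue was taken 24 h after injury, and no group carried a genetic change. Prozac is fluoxetine and Zoloft is sertraline, both of them selective serotonin reuptake inhibitors, while imipramine is a tricyclic antidepressant.

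Levels are log2 scaled signals, that is, a probe's spot intensity relative to the array's own 75th percentile, taken over its detected probes. A difference of 1 is a 2-fold change, and levels of different genes are not comparable. A gene passed the test where its adjusted p, over all 17322 probes, was under 0.05. Between 14676 and 18196 probes were above background on an array. The labelled tissue was checked with 6 hippocampal neuron markers, of which 5 were above background on all 14 arrays and Prox1 was above background on none. The arrays lay on 3 slides. The 3 TBI arrays shared a slide with TBI+Prozac replicate 1, the other drug arrays shared another, and the Sham arrays had a slide of their own, so slide and injury cannot be told apart in any comparison with Sham.

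Lysosomes are acidic compartments in which hydrolases break down proteins, glycans and lipids delivered by endocytosis, phagocytosis and autophagy. In the brain they are abundant in microglia and macrophages, which clear debris after injury, and neurons depend on them because they cannot dilute undegraded material by dividing. Imipramine, fluoxetine and sertraline are cationic amphiphilic drugs, which are weak bases that are trapped in acidic lysosomes and reduce the activity of the lysosomal enzyme acid sphingomyelinase. The transcription factor TFEB drives many lysosomal genes through a promoter element called CLEAR, which is built around the E-box CACGTG.

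Because TFEB is a route by which lysosomal genes can be regulated together, the promoters of the members were read first. RefSeq (assembly GRCr8) gave a window from 250 bases before to 50 bases after the start site for 31 of the 37 genes. Ctsb, Hexa, Asah1, Psap, Ppt1 and Atp6v1h had no entry. Both strands were searched for CACGTG and for the longer TCACGTGA, which contains it, and each of these motifs is its own reverse complement. CACGTG was in 7 of the 31 windows (22.6%) against 1826 of the 27457 windows of all genes (6.65%). TCACGTGA was in 4 of 31 (12.9%) against 238 of 27457 (0.867%). The windows of the 4 genes with TCACGTGA are shown first, then Cd63, which has CACGTG alone and rose after injury, and then Ctsc and Ctbs, which have neither motif and had the largest difference after injury and the largest difference between drugs. Capitals mark the motifs.
Lamp1, chr16:83075014-83075313, minus strand: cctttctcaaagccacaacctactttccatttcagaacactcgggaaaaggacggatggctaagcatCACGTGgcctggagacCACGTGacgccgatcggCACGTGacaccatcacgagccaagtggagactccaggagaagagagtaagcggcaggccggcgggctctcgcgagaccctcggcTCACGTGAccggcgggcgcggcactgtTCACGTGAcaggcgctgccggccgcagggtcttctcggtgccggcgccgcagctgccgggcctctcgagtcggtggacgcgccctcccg
Mcoln1, chr12:6358008-6358307, plus strand: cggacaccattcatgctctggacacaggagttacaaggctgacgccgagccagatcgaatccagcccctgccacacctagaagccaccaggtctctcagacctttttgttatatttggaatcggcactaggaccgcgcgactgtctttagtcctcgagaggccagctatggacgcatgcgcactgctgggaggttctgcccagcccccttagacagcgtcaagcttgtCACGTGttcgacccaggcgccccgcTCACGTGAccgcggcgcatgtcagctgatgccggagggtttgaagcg
Ctsd, chr1:206968772-206969071, minus strand: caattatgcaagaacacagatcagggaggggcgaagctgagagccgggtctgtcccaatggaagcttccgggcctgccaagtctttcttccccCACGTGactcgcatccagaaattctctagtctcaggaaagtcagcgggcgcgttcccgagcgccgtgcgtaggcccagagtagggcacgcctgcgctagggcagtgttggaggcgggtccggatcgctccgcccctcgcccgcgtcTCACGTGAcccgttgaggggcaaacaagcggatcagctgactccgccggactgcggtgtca
Atp6v0d1, chr19:50357199-50357498, minus strand: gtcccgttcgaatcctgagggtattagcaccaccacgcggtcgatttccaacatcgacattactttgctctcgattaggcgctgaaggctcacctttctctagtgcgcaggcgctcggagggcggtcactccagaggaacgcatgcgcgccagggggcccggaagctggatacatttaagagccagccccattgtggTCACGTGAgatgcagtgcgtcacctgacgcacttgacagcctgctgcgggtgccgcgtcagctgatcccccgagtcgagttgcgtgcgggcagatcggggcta
Cd63, chr7:1921894-1922193, plus strand: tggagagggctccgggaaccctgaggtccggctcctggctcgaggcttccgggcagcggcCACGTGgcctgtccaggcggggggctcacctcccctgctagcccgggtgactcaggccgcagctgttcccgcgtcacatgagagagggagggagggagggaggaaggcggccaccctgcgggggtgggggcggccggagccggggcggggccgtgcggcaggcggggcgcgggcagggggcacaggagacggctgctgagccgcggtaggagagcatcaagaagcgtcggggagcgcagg
Ctsc, chr1:151440799-151441098, plus strand: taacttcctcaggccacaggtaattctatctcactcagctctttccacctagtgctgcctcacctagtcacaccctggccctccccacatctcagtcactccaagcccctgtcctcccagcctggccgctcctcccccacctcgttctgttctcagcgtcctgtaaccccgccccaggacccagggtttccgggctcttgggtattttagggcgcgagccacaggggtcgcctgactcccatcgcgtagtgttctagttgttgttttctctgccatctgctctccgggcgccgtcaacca
Ctbs, chr2:238000601-238000900, plus strand: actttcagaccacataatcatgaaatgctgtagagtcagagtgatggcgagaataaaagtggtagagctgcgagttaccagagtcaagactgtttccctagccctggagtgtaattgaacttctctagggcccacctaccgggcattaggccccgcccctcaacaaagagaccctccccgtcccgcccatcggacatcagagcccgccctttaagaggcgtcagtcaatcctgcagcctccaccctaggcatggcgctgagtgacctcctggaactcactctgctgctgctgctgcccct

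Lamp1 encodes a major glycoprotein of the lysosomal membrane, and its window held TCACGTGA at 66 and at 39 bases upstream of the start site. Ctsd, the aspartic protease cathepsin D, had TCACGTGA at 11 bases upstream, and Atp6v0d1, a subunit of the proton pump, had it at 53. Mcoln1, the calcium channel TRPML1, had it at 3 bases past the start site. Cd63 had CACGTG at 190 bases upstream, and Gaa and Glb1 were the other genes with CACGTG alone. A match is a description of the letters in these windows, not of a factor's binding.

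Injury came first among the comparisons, and it asks what the trauma did without a drug. At 24 h, 8 of the 37 lysosomal genes (21.6%) differed between TBI and Sham, 7 higher and 1 lower. Over all probes, 16.6% were called in this comparison and 8.3% were called higher. The share of lysosomal genes called higher was 18.9%. The median difference of the 37 genes was 0.16 against 0.0015 over all probes, and 26 of the 37 were above 0. The genes that rose were the proteases Ctsc, Ctsz, Lgmn and Ctsb, the membrane proteins Cd63 and Cd68, and the growth factor precursor Grn. The TBI and Sham values did not overlap for any of the 8 genes, but these genes were selected by a test on the same values. Of all 37 genes, 17 had no overlap between TBI and Sham, so genes that did not pass are among them. The share of all probes without overlap is not given here, so the lack of overlap is a description and not further evidence. In whole tissue, more cells of a type and more RNA per cell cannot be told apart.

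**Figure D1:**
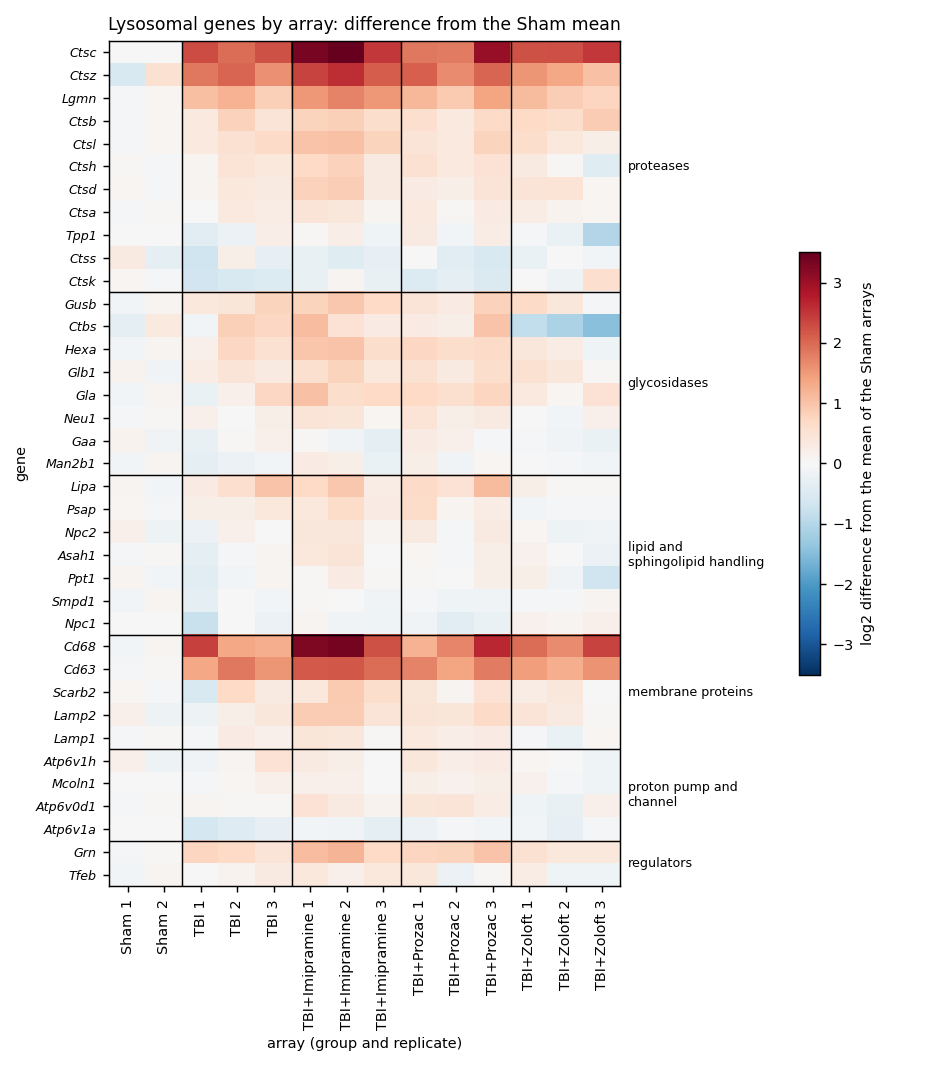
Log2 difference of each of the 37 lysosomal genes (rows, grouped by role) from the mean of the 2 Sham arrays on each of the 14 arrays (columns, by group and replicate), red for higher and blue for lower. Ctsc, Ctsz, Lgmn, Cd68 and Cd63 are red on all 12 injured arrays, and Ctbs is blue on the 3 TBI+Zoloft arrays.

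Among the proteases, 4 of 11 rose and none fell, with a median difference of 0.32 and a range from -0.57 (Ctsk) to 2.16 (Ctsc). Ctsc encodes cathepsin C, which activates the granule proteases of leukocytes. Its log2 levels were -3.02 and -3.03 on the Sham arrays and -0.73, -1.05 and -0.80 on the TBI arrays. The TBI arrays lay close together and far above the Sham arrays, a difference of 2.16 (SE 0.35, adjusted p = 0.00198), or 4.47-fold. Ctsz, the carboxypeptidase cathepsin Z, had levels of -3.60 and -2.52 in Sham and -1.22, -1.02 and -1.45 in TBI. Its Sham arrays were 1 log2 unit apart, yet both lay below every TBI array, and the difference was 1.83 (SE 0.28, adjusted p = 0.00144), or 3.56-fold.

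Lgmn is legumain, the lysosomal endopeptidase that cuts after asparagine and processes other cathepsins. Its levels were 0.06 and 0.17 in Sham against 1.18, 1.34 and 0.96 in TBI, a rise of 1.04 (SE 0.17, adjusted p = 0.00225), or 2.06-fold. Ctsb, the abundant cysteine protease cathepsin B, rose least of the 4. It had levels of 3.69 and 3.80 in Sham and 4.08, 4.56 and 4.19 in TBI, a difference of 0.53 (SE 0.17, adjusted p = 0.0466), or 1.44-fold. The call of Ctsb held in 3 of the 14 refits that left out 1 array (without TBI replicate 1, without Prozac replicate 2 and without Zoloft replicate 3), and it was lost with the normexp background correction (adjusted p = 0.0576). Ctsl, cathepsin L, had a difference of almost the same size (0.52, SE 0.17) with an adjusted p of 0.0614. Ctsk, the collagen-degrading cathepsin K, had -0.57 (SE 0.20, adjusted p = 0.0796). Ctss, the cathepsin of antigen-presenting cells, had -0.26 (adjusted p = 0.544) with Sham levels of 1.80 and 1.15 on either side of most TBI values.

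Of the 5 membrane proteins, Cd63 and Cd68 rose, while Lamp1 and Lamp2, the main glycoproteins of the membrane, both gave 0.14. Cd63, a tetraspanin of late endosomes and lysosomes, had levels of 0.94 and 1.02 in Sham and 2.33, 2.84 and 2.52 in TBI. The difference of 1.58 (SE 0.18, adjusted p = 0.000257) had the smallest adjusted p of the 37 genes. Cd68 encodes macrosialin, the lysosomal glycoprotein used to mark phagocytic microglia and macrophages. Its levels were -4.60 and -4.40 in Sham and -2.11, -3.14 and -3.24 in TBI, where replicate 1 stood above the other TBI arrays by about 1 log2 unit. The rise was 1.67 (SE 0.45, adjusted p = 0.0260), or 3.19-fold. The call of Cd68 was lost without either Sham array and without TBI replicate 1.

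Of the regulators, Grn rose and Tfeb did not pass. Grn encodes progranulin, a secreted and lysosomal protein needed for normal lysosome function. Its levels were 0.51 and 0.60 in Sham against 1.32, 1.26 and 1.004 in TBI, a difference of 0.64 (SE 0.16, adjusted p = 0.0209), or 1.55-fold. Its other probe gave 0.67 (adjusted p = 0.0179). The call of Grn was lost without either Sham array and without TBI replicate 2. Tfeb itself had levels of -3.19 and -3.02 in Sham and -3.10, -2.99 and -2.80 in TBI, groups that overlapped.

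**Figure D2:**
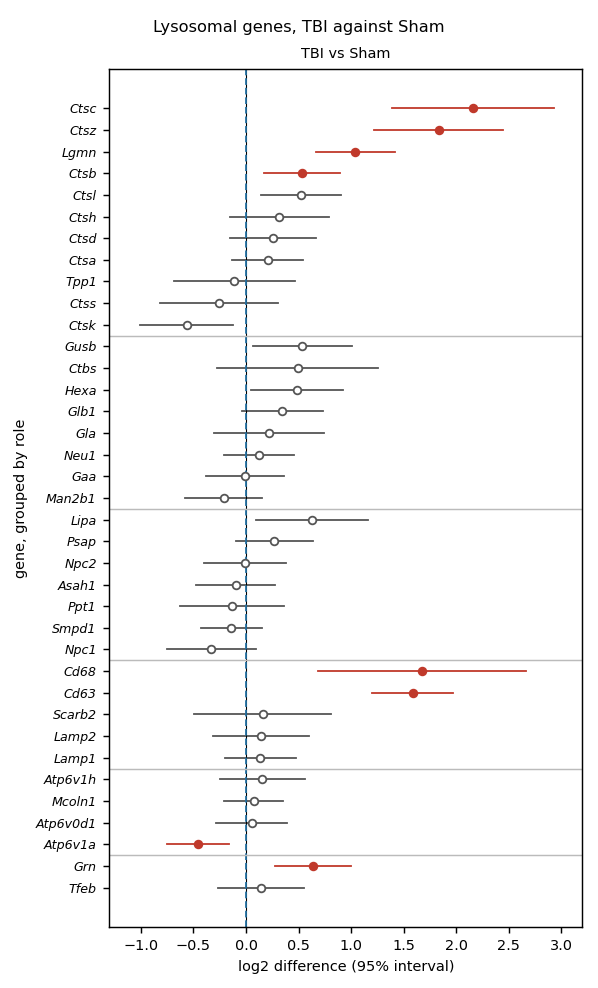
Log2 difference of TBI minus Sham (x axis) with its 95% interval for the 37 lysosomal genes (y axis, grouped by role), with the 8 genes that passed in filled red. The dashed line marks the median of all probes. Ctsc, Ctsz, Cd68, Cd63 and Lgmn lie at 1.04 or above, and Atp6v1a, at -0.46, is the gene that was lower.

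The glycosidases and the lipid-handling genes had no member past the threshold, with 2 glycosidases and 1 lipid gene at an unadjusted p under 0.05, a limit that 30.8% of all probes met. The 8 glycosidases ranged from -0.21 (Man2b1, a mannosidase) to 0.53 (Gusb, beta-glucuronidase), with a median of 0.28. Gusb had levels of -3.65 and -3.48 in Sham and -3.18, -3.13 and -2.78 in TBI (SE 0.22, adjusted p = 0.117). These arrays did not overlap, but the gap did not pass. Hexa, the alpha subunit of beta-hexosaminidase, gave 0.49 (adjusted p = 0.122). The 7 lipid genes ranged from -0.33 (Npc1, the cholesterol exporter of the lysosome) to 0.63 (Lipa, lysosomal acid lipase, adjusted p = 0.102), with a median of -0.10.

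The proton pump and channel genes gave the only fall. Atp6v1a, the catalytic subunit of the pump, had levels of 1.93 and 1.91 in Sham and 1.30, 1.46 and 1.63 in TBI, and fell by 0.46 (SE 0.14, adjusted p = 0.0400). A second and much dimmer probe of Atp6v1a gave 0.59 in the other direction (adjusted p = 0.353), and the mean of both probes gave 0.07, so the fall rests on a single probe. The call of Atp6v1a held in 4 of the 14 refits that left out 1 array. Atp6v0d1, Atp6v1h and Mcoln1 ranged from 0.05 to 0.16 and did not pass. Of the 4 genes with TCACGTGA in the promoter window, none passed, and their differences ranged from 0.05 to 0.26. Of the 3 with CACGTG alone, Cd63 passed, and of the 24 with neither, 6 passed.

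Markers of other cells moved in the same comparison. Of the 12 microglia and macrophage markers, 5 rose (C1qb, C1qc, Itgam, Ptprc and Tyrobp). The summed level of that list was 95.6 to 104% of the Sham mean on the Sham arrays and 147 to 208% on the TBI arrays, and all 12 were above background on every array. Of the 6 leukocyte markers tested, 4 rose (Msr1, S100a8, S100a9 and Lyz2). The summed level of the 6 leukocyte markers with a value on every array, Lyz2 left out, was 93.9 to 106% in Sham and 377 to 2273% in TBI. Of the 7 measured, 1 was above background on all 14 arrays. The part of these cells in the changes of Cd68, Ctsc and the other lysosomal genes was not tested.

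**Figure D3:**
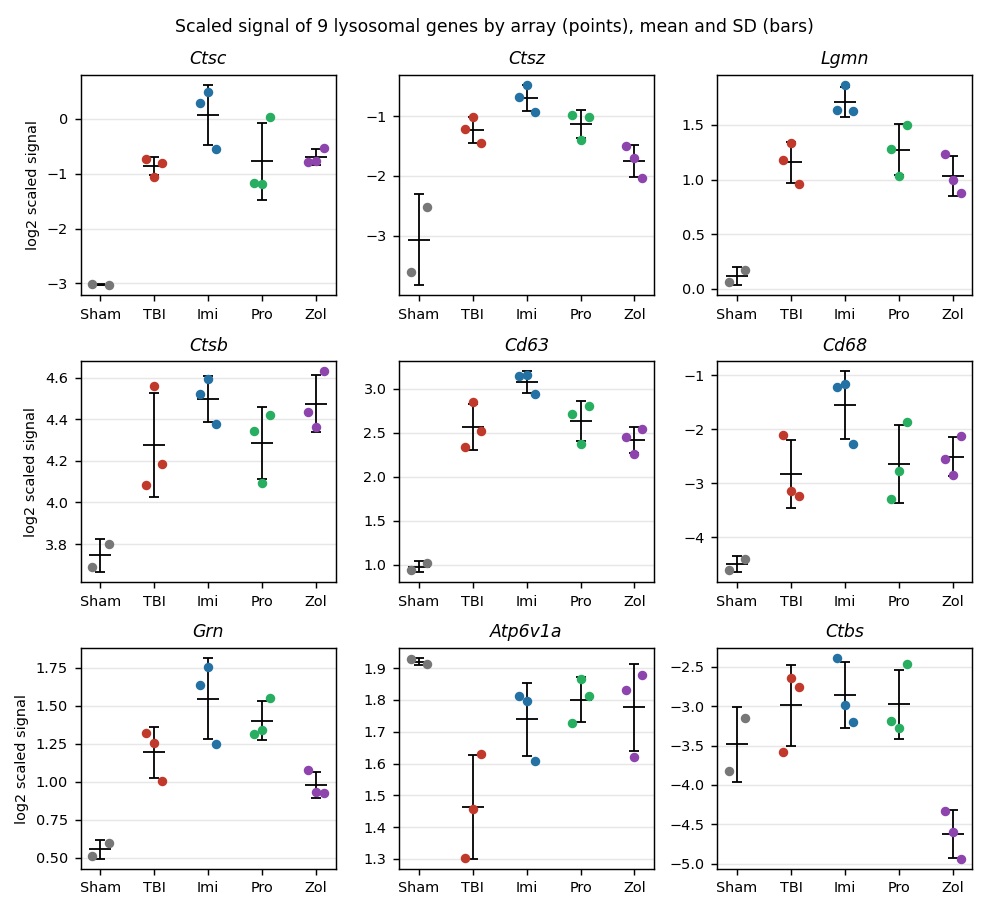
Log2 scaled signal (y axis) on each array (points) for the 8 lysosomal genes that differed between TBI and Sham and for Ctbs, by group (x axis: Sham, TBI, and TBI with imipramine, Prozac or Zoloft), with horizontal bars for the mean and vertical bars for the SD (n = 2 Sham, n = 3 in the other groups). The Sham arrays lie below all 12 injured arrays for Ctsc, Ctsz, Lgmn, Ctsb, Cd63, Cd68 and Grn, and the TBI+Zoloft arrays lie below all others for Ctbs.

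Each drug was then compared with TBI alone, which asks whether treatment changed the genes of the compartment where these drugs collect. With imipramine, 0 of the 37 genes passed the limma test, beside 2.85% of all probes, and 12 had an unadjusted p under 0.05, beside 19.7% of all probes. With Prozac, 0 passed, beside 0.00577% of all probes, and 2 had an unadjusted p under 0.05, beside 10.1%. With Zoloft, 1 gene passed, Ctbs (2.70%), beside 1.38% of all probes, and 6 had an unadjusted p under 0.05, beside 15.2%. The methods' own test, with an unadjusted p and a 1.2-fold limit, gave 6, 2 and 3 genes, beside 14.1%, 6.31% and 8.12% of all probes, and 0 genes for each drug after Benjamini-Hochberg adjustment. These comparisons share the TBI arrays, and they also set slides against each other, since only TBI+Prozac replicate 1 lay on the slide of the TBI arrays.

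The scale of all probes moved in these comparisons, so the members were read against it. The median of all probes was 0.199 for imipramine, 0.146 for Prozac and 0.0146 for Zoloft minus TBI. The median of the lysosomal genes was 0.28, 0.14 and -0.09. Relative to all probes, 24 of 37 genes were above the median with imipramine, 16 with Prozac and 14 with Zoloft. Under quantile normalization the medians of the lysosomal genes were 0.11, 0.0014 and -0.12, and those of all probes -0.015, 0.0022 and -0.017. TBI+Prozac replicate 1 against the TBI arrays of its own slide had a median of 0.21 over the 37 genes, with a range from -0.46 to 0.49.

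Smpd1, Asah1 and Tfeb were followed whatever their values. Smpd1 encodes acid sphingomyelinase, the enzyme that these drugs inhibit. Its TBI levels were 1.08, 1.41 and 1.32. With imipramine they were 1.45, 1.39 and 1.28, with Prozac 1.36, 1.26 and 1.30, and with Zoloft 1.37, 1.35 and 1.50. All 3 treated groups overlapped the TBI group. The differences from TBI were 0.10 (95% interval -0.16 to 0.36, adjusted p = 0.647), 0.04 (-0.22 to 0.30, adjusted p = 0.940) and 0.14 (-0.12 to 0.40, adjusted p = 0.649), and other scalings turned those with imipramine and Prozac below 0, as normexp did for Zoloft. The intervals leave room for changes of up to 0.40 log2 units.

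Asah1 encodes acid ceramidase, which acts on the ceramide that acid sphingomyelinase releases. Its TBI levels were -1.23, -0.99 and -0.83, and those with imipramine were -0.56, -0.47 and -0.92. Imipramine replicate 3 lay within the TBI values and the other imipramine arrays above them, a difference of 0.37 (0.03 to 0.71, adjusted p = 0.220). With Prozac the difference was 0.18 (-0.16 to 0.52, adjusted p = 0.730), and with Zoloft it was 0.07 (-0.26 to 0.41, adjusted p = 0.876). Tfeb gave 0.17 (-0.20 to 0.53, adjusted p = 0.591), -0.06 (-0.42 to 0.30, adjusted p = 0.927) and -0.15 (-0.52 to 0.21, adjusted p = 0.734) with the 3 drugs in that order, and other scalings turned the imipramine difference below 0. The spread between arrays was of the same size as these differences.

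**Figure D4:**
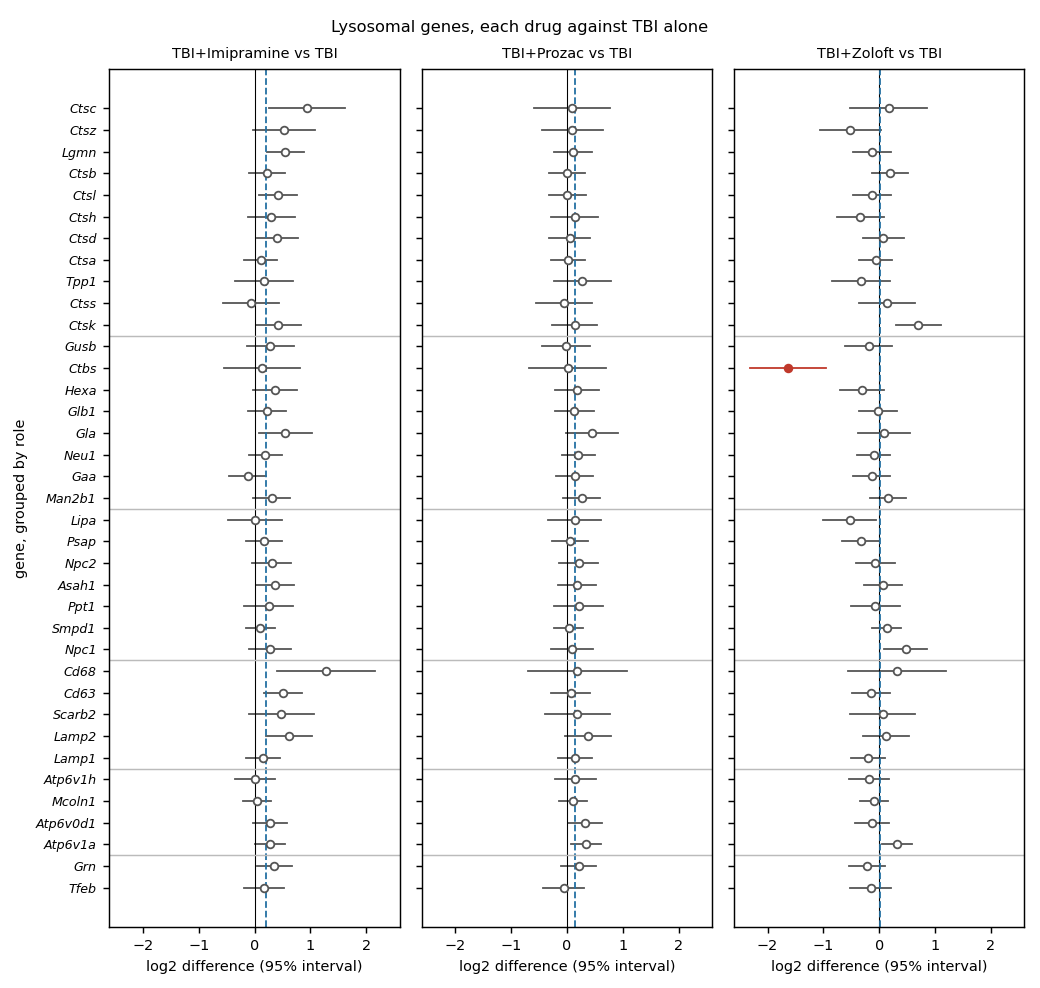
Log2 difference from TBI (x axis) with its 95% interval for the 37 lysosomal genes (y axis, grouped by role) in 3 panels, 1 for each drug. The dashed line marks the median of all probes, at 0.199, 0.146 and 0.0146, and Ctbs with Zoloft, at -1.63, is the gene that passed (filled red).

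By role, the median difference from TBI with imipramine was 0.51 for the membrane proteins, 0.41 for the proteases, 0.26 for the regulators, 0.25 for the glycosidases, 0.25 for the lipid genes and 0.16 for the pump and channel. The largest was Cd68, whose levels with imipramine were -1.22, -1.16 and -2.27 against -2.11, -3.14 and -3.24 in TBI. Imipramine replicate 3 lay among the TBI arrays, and the difference was 1.28 (SE 0.41, adjusted p = 0.117). Ctsc gave 0.94 (SE 0.32, adjusted p = 0.135), Lamp2 gave 0.61 (adjusted p = 0.110), and Gla and Lgmn gave 0.55 each (adjusted p = 0.0815 for Lgmn). The probe of Gla is dim. It was above background on 2 of 3 TBI arrays and passed the filter through the imipramine and Prozac groups, so its difference is not read as a result. Lgmn values with imipramine were 1.64, 1.87 and 1.62, all above the 3 TBI values. Lgmn passed when slide was fitted as a random block. That fit had a slide correlation of -0.0579, below 0, so it did not allow for a shared slide effect. With slide as a fixed block, 0 of the 37 genes passed with imipramine. With Prozac the role medians ran from 0.07 to 0.24. With Zoloft they ran from -0.18 to 0.06. The 95% interval of the difference from TBI lay within a 2-fold change either way for 31 of 37 genes with imipramine, 36 with Prozac and 32 with Zoloft.

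Ctbs encodes chitobiase, the glycosidase that removes the last sugars of asparagine-linked glycans. Its levels were -3.58, -2.64 and -2.76 in TBI and -4.33, -4.59 and -4.94 with Zoloft. All 3 Zoloft arrays lay below every other array of the study, the Sham arrays at -3.82 and -3.14 included. The difference from TBI was -1.63 (SE 0.32, adjusted p = 0.0327), or 0.323 of the TBI level. The difference from Sham was -1.14 (SE 0.35, adjusted p = 0.0791). With imipramine the levels were -2.39, -2.98 and -3.20, and with Prozac they were -3.18, -3.28 and -2.47, both overlapping TBI. With slide as a fixed block the Zoloft difference was -1.94 (adjusted p = 0.998), a fit in which TBI+Prozac replicate 1 alone ties the slides together. The call was also lost without TBI replicate 2 or 3, without TBI+Imipramine replicate 1 or 2, and without any 1 of the 3 Zoloft arrays. The summed level of the hippocampal neuron markers was 67.1 to 73.0% of the Sham mean on the Zoloft arrays and 85.4 to 109% on every other array, while that of the general neuron markers was 88.8 to 109% and 78.3 to 114%. The part of neurons in the Ctbs result was not tested.

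Ctsk had the next largest difference with Zoloft, at 0.70 (SE 0.18, adjusted p = 0.0804), with TBI levels of -3.20, -3.06 and -2.99 and Zoloft levels of -2.53, -2.69 and -1.92. These groups did not overlap, a description of a gene chosen for the size of its difference. Ctsk passed under 4 other ways of scaling. Npc1 gave 0.47 (adjusted p = 0.208), and Lipa gave -0.53 (adjusted p = 0.267).

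Against Sham, each injured and treated group had its own set of genes past the threshold. These comparisons share the 2 Sham arrays with each other and with the TBI comparison, so they are given side by side. With imipramine 14 of 37 genes passed (37.8%), all higher, beside 23.4% of all probes called and 19.8% called higher. With Prozac 8 passed (21.6%), all higher, beside 14.9% called and 11.7% higher. With Zoloft 6 passed (16.2%), all higher, beside 5.95% called and 4.16% higher. The median of the 37 genes was 0.44, 0.33 and 0.10, against 0.183, 0.143 and 0.0025 over all probes.

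Ctsc, Ctsz, Cd68, Cd63, Lgmn and Ctsb passed in all 3. For Ctsc the differences from Sham were 3.10 with imipramine (adjusted p = 0.000194), 2.25 with Prozac (adjusted p = 0.00243) and 2.33 with Zoloft (adjusted p = 0.00338), beside 2.16 in TBI alone. For Cd68 they were 2.95, 1.86 and 1.99, beside 1.67. For Ctsz they were 2.36, 1.93 and 1.31, beside 1.83. For Cd63 they were 2.09, 1.65 and 1.44, beside 1.58, and for Lgmn 1.59, 1.16 and 0.92, beside 1.04. The 12 injured arrays lay above both Sham arrays for each of these genes, which were selected by tests on the same values. The call of Ctsb held in 8 of its 25 alternative fits with Prozac, against 24 with imipramine and 20 with Zoloft. The summed level of the microglia and macrophage markers was 170 to 183% of the Sham mean with imipramine, 136 to 174% with Prozac and 167 to 175% with Zoloft. That of the leukocyte markers was 1378 to 2469%, 475 to 1087% and 1141 to 1978% in the same order. These percents rest on a low Sham sum, 0.116 to 0.131 on the scaled signal before log2, over 6 markers. Of the 7 leukocyte markers measured, 1 was above background on all 14 arrays. The part of these cells in the differences from Sham was not tested.

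Grn and Hexa passed with imipramine (0.99 and 0.86) and with Prozac (0.84 and 0.67). Ctsl (0.93), Gusb (0.82), Lamp2 (0.75), Ctsd (0.66) and Glb1 (0.57), the lysosomal beta-galactosidase, passed with imipramine. Of 25 alternative fits, the call of Hexa with Prozac held in 12, and the calls with imipramine held in 16 for Ctsd, 15 for Glb1 and 21 each for Gusb and Lamp2. Ctsd had levels of 2.93 and 2.82 in Sham and 3.69, 3.74 and 3.19 with imipramine (adjusted p = 0.0248). Gla, alpha-galactosidase A, was above background on 0 of 2 Sham arrays and on all arrays with imipramine and Prozac, through which it passed the filter. In the main scaling its measured mean was 1.71-fold higher with imipramine than in Sham, where a level under background could be lower still. The limma adjusted p was 0.0358. The probe was kept through the groups where it is high, so this call is not read as a result. That call held in 14 of 24 alternative fits, in which the difference ran from 0.06 to 0.86 log2 units, so 1.71-fold is not a minimum over the scalings. Gla is 1 of the 14 genes counted with imipramine, and the other 13 were above background on at least 1 Sham array.

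The scaling bore on these directions. Centring each array on its median gave 11 higher and 3 lower genes with imipramine (lower: Atp6v1a, Gaa and Smpd1), 7 higher and 4 lower with Prozac (lower: Atp6v1a, Ctsk, Npc1 and Smpd1), and 6 higher and 1 lower with Zoloft (lower: Ctbs). Over all probes it moved the calls with imipramine from 3423 higher of 4046 to 2322 higher of 5352. Ctsc, Cd68, Cd63, Ctsz and Lgmn were higher in all 3 treated groups under quantile, array-median, all-probe percentile and series-table scaling, while normexp did not call Cd68, Ctsz or Lgmn with Zoloft. The Sham arrays also weighed on the counts. Without Sham replicate 1 the counts were 4 in TBI, 8 with imipramine, 4 with Prozac and 2 with Zoloft, and without Sham replicate 2 they were 4, 9, 5 and 3. Without TBI replicate 2 the TBI count was 5, without imipramine replicate 2 the imipramine count was 9, and without Prozac replicate 3 the Prozac count was 5.

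The last comparison set the 3 drugs against each other in 3 pairs. A test over the 3 drug groups called Ctbs alone among the 37 genes (adjusted p = 0.0224), beside 3.18% of all probes. Imipramine against Zoloft called 6 genes (16.2%), all higher with imipramine, beside 5.29% of all probes called and 5.25% higher. Prozac against Zoloft called Ctbs, beside 3.69%. Imipramine against Prozac called 0 by limma, beside 0.00577%, with 5 at an unadjusted p under 0.05, beside 6.91%. The adjusted p-values are over all probes within a pair and not over the 3 pairs.

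Ctbs was higher than with Zoloft by 1.76 with imipramine (95% interval 1.08 to 2.45, adjusted p = 0.0168) and by 1.64 with Prozac (0.96 to 2.33, adjusted p = 0.0225). The imipramine difference was 1.76 (adjusted p = 0.0428) on the arrays of the shared slide alone, while the Prozac difference, which then has 2 Prozac arrays, was 1.75 (adjusted p = 0.116). Without imipramine replicate 1 or 2, or Zoloft replicate 2, the first call was lost (adjusted p up to 0.105). Without any 1 of the Prozac arrays, or Zoloft replicate 2, the second was lost (adjusted p up to 0.0822). The second was also lost with normexp (adjusted p = 0.0634) and without the filter on dim probes (adjusted p = 0.0776). It was lost too with slide as a fixed block (adjusted p = 0.0794) and with the replicate block (adjusted p = 0.0567). The other 5 genes higher with imipramine than with Zoloft were Ctsz (1.05, adjusted p = 0.0382), Hexa (0.68, adjusted p = 0.0479), Lgmn (0.68, adjusted p = 0.0328), Cd63 (0.66, adjusted p = 0.0380) and Grn (0.57, adjusted p = 0.0461). Beside them stands a shift of 0.179 in the median of all probes. All 5 kept their direction and lost their call under quantile normalization, with the 75th percentile over all probes, with arrays centred on their median and with the series table. The replicate block also removed the call of all 5. With slide as a fixed block the calls of Hexa and Grn were lost, and on the arrays of the shared slide alone those of Hexa, Cd63, Lgmn and Grn were lost. Of the 14 refits that left out 1 array, the call held in 10 for Lgmn, 9 each for Ctsz and Cd63, and 3 each for Hexa and Grn. The call of Grn was also lost with the mean of its probes. Normexp kept Lgmn of the 5, and without the filter on dim probes all 6 calls were lost (adjusted p = 0.0516 for Ctbs).

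**Figure D5:**
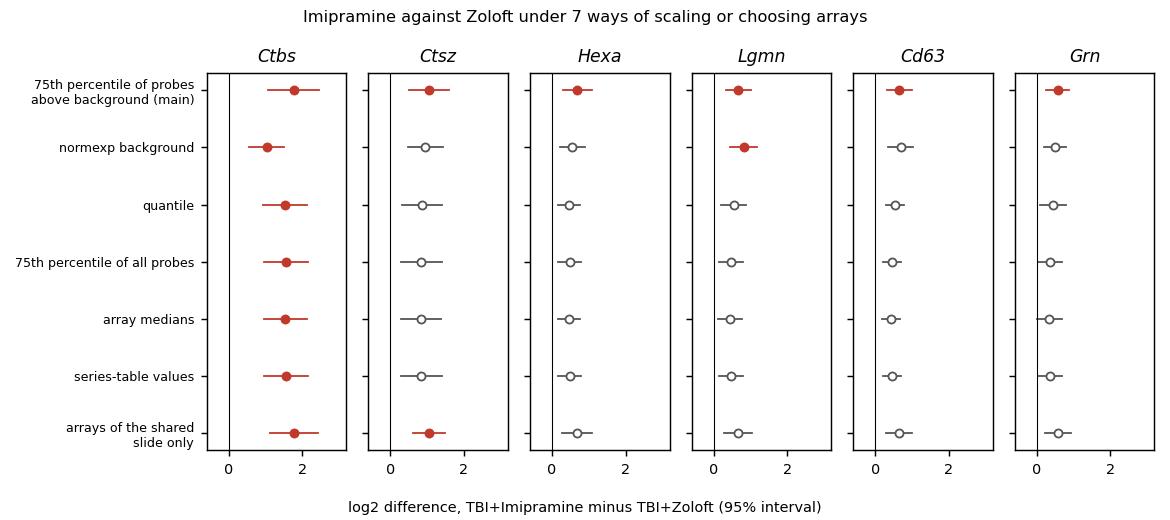
Log2 difference of TBI+Imipramine minus TBI+Zoloft (x axis) with its 95% interval for the 6 lysosomal genes called between these drugs (panels), under 7 ways of scaling or choosing arrays (rows), filled red where the adjusted p was under 0.05. Ctbs is filled in every row, and the other 5 genes are open under quantile, array median, series table and all-probe percentile scaling.

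Hexa had levels of -1.97, -1.92 and -2.33 with imipramine and -2.53, -2.67 and -3.07 with Zoloft. With Prozac they were -2.19, -2.31 and -2.26, within the imipramine values. Ctsz had -0.68, -0.48 and -0.93 with imipramine and -1.50, -1.70 and -2.04 with Zoloft. The imipramine and Zoloft values of Hexa and Ctsz did not overlap. Both genes were selected by a test on the same values, so this is a description and not further evidence. The probes of Glb1 differed in call. The brighter probe did not pass between drugs, while the dimmer probe was higher than with Zoloft by 0.72 with imipramine (adjusted p = 0.0225) and by 0.70 with Prozac (adjusted p = 0.0292). Its levels were -3.54, -3.51 and -3.69 with imipramine, -3.61, -3.65 and -3.55 with Prozac, and -4.03, -4.23 and -4.63 with Zoloft. Between imipramine and Prozac, 35 of the 37 intervals lay within a 2-fold change, with Cd68 (0.21 to 1.98) and Ctsc outside.

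Within a group, 1 array often held the lowest values. Of the 37 genes, TBI replicate 1 was the lowest of its group for 30, imipramine replicate 3 for 33, Prozac replicate 2 for 30, Zoloft replicate 3 for 22 and Sham replicate 1 for 21. Over all probes tested, the same arrays were the lowest of their groups for 82.0%, 60.3%, 57.6%, 34.6% and 50.3%. TBI replicate 1, imipramine replicate 3 and Prozac replicate 2 also had the fewest probes above background in their groups (14676, 16984 and 16672), and the part of this in the order of the arrays was not tested. The same 5 arrays had the lowest summed level of 8 choroid plexus markers in their groups. That level, as a percent of the Sham mean, was 4.06 on Sham replicate 1 and 196 on replicate 2. It was 4.64, 13.0 and 193 in TBI, 679, 711 and 12.1 with imipramine, 590, 1.46 and 1.49 with Prozac, and 466, 682 and 11.9 with Zoloft. Prozac replicates 2 and 3 were nearly the same in this level, so which of them was the lowest carries little weight. Of the 8 markers, 2 were above background on all 14 arrays. The part of choroid plexus tissue in the values of the lysosomal genes was not tested.

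The median SD of the 37 genes within a group was 0.110 log2 units in Sham, 0.197 in TBI, 0.195 with imipramine, 0.165 with Prozac and 0.182 with Zoloft. The median of the 37 genes minus their Sham mean was 0.01, 0.22 and 0.32 on the TBI arrays and 0.46, 0.50 and 0.28 with imipramine. It was 0.43, 0.20 and 0.32 with Prozac and 0.22, 0.03 and 0.04 with Zoloft. All 3 imipramine arrays stood above every Zoloft array in this median, and TBI replicate 1 stood at the level of Sham. Over all probes the median difference from Sham was 0.0015 in TBI, 0.183 with imipramine, 0.143 with Prozac and 0.0025 with Zoloft. TBI replicate 1 was the lowest of its group for 82.0% of all probes. The part of this shift of all probes in the order of the arrays was not tested.

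Other genes of the lysosome were read from 6 lists of 89 symbols, of which 75 genes were tested. Between TBI and Sham, 4 were higher and 4 lower (10.7%), beside the 16.6% of all probes, with a median of -0.03. The higher genes included Cst7 (1.77, adjusted p = 0.0261) and Cstb (0.73, adjusted p = 0.0173), both inhibitors of cysteine cathepsins, and Dnase2 (0.83), the lysosomal nuclease. The lower genes were Atp6v1e1 (-0.75), a pump subunit, Rab7a (-0.74), the small GTPase of late endosomes, Uvrag (-0.69) and Clcn7 (-0.40), the chloride transporter of the lysosome. Of the 14 other pump subunits tested, Atp6v1e1 was the 1 that passed.

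Against TBI, Rab7a was higher with imipramine (0.78, adjusted p = 0.0448), and no other gene of these lists passed with any drug. Against Sham, 9 of the 75 (12%) were higher with imipramine, beside 19.8% of all probes, and 7 (9.33%) with Prozac, beside 11.7%. With Zoloft 1 was higher and Atp6v1e1 was lower (-1.15, adjusted p = 0.00670), 2.67% together beside 5.95%. Cst7 was higher than in Sham by 2.90 with imipramine and by 1.76 with Prozac. Between imipramine and Zoloft, 5 of the 75 passed (6.67% beside 5.29% of all probes), all higher with imipramine, Gm2a, Atp6v1e1, Atp6v1d and Lamtor1 among them. Of the 15 autophagy and TFEB family genes tested, Uvrag was the 1 that passed between TBI and Sham.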

How the data were processed

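The deposited files of the gene expression arrays hold spot intensity values and per-spot flags, which Agilent Feature Extraction wrote per the file headers, background-subtracted and not scaled between arrays. The authors' series table holds intensity values per probe that equal the spot mean divided by 1 constant per array. The miRNA arrays were not analysed here. Control spots and spots with outlier flags (260 to 613 of 58717 per array) were left out, the spots of each of 30367 probes were averaged, and values were scaled by the 75th percentile, per array, of detected probes (those above background) and put on the log2 scale. The 17322 probes above background on all arrays of at least 1 group were kept. Genes were named by accession through a RefSeq table (GRCr8), which gave a symbol to 18643 probes. limma (version 3.58.1, R 4.3.3) fitted all 14 arrays in 1 model with 5 groups, with Benjamini-Hochberg adjustment over all kept probes. A gene with several probes was shown by the brightest. All genes past the threshold were named, with Smpd1, Asah1 and Tfeb in each drug against TBI, and genes outside this rule were chosen after their values were seen. Members and lists were chosen with earlier results of these data known. Nothing states that replicates came from separate cohorts, so p-values measure the spread between these rats. The fit was tested on simulated data. Some genes of the other lists are counted but not reported by name here. Alternatives were normexp (offset 50, on median signals with the background median, since mean signals were not used here), quantile, median and all-probe scaling, other filters, the series table, slide and replicate as blocks, the methods' test and leaving out each array. Drug arrays of the shared slide for pairs of drugs, and values within a slide, were chosen after seeing the data.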

Additional observations from a re-analysis of the deposited data

Results flagged for a closer look

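Ctbs differed between the 3 drugs when the difference itself was tested. The moderated F test of limma over the TBI+Imipramine, TBI+Prozac and TBI+Zoloft arrays gave an adjusted p of 0.0224. It called 1 of the 37 genes (2.70%), beside 3.18% of all probes, so the count is no larger than the share of all probes. Against TBI, Ctbs gave 0.13 with imipramine (SE 0.32), 0.01 with Prozac and -1.63 with Zoloft, and it was lower than every TBI array on 3 of 3 Zoloft arrays. The adjusted p of that test ranged from 0.0113 to 0.0808 over the other ways of processing, and the call was lost without TBI+Imipramine replicate 1 or 2 and without TBI+Zoloft replicate 2 or 3. The groups held 2 or 3 arrays, too few to look for single arrays that stand apart within a group.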

How the results depend on the processing

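The counts of lysosomal genes past the threshold are given against 8 for TBI, 14 for imipramine, 8 for Prozac and 6 for Zoloft (each against Sham), 0, 0 and 1 for the drugs against TBI, and 1 for differences among the drugs. Without the filter on dim probes the counts were 4 for TBI against Sham, 0 for Zoloft against TBI and 0 among the drugs. Normexp gave 3 for Zoloft against Sham, 2 for Zoloft against TBI and 0 among the drugs. Zoloft against TBI was also 2 with the 75th percentile over all probes, with arrays centred on their median, with the series table and with slide as a random block, and 0 with slide as a fixed block. Imipramine against TBI was 1 with slide as a random block and 0 with slide as a fixed block. The random block had a slide correlation of -0.0579, below 0, so it did not allow for a shared slide effect. Among the drugs the count was 0 with arrays centred on their median and on the shared slide alone, and 2 when only probes detected on all 14 arrays were kept. The methods' test with an unadjusted p gave 6, 2 and 3 for the drugs against TBI. It gave 15 for Prozac against Sham, beside 4139 of 17322 probes. Among the drugs it gave 14, a count of genes that passed in any of the 3 pairs and not by an F test. Over all probes that test called 3048 in imipramine against Zoloft, 2598 in Prozac against Zoloft and 992 in imipramine against Prozac. After adjustment it gave 0, 0, 0 and 0 for TBI, Prozac and Zoloft against Sham and among the drugs, 2 for imipramine against Sham, and 0 for Zoloft against TBI. Of 26 same-numbered pairs, 2 had a correlation over 0.1 (range -0.23 to 0.23). Pairs with different numbers were not compared, so this cannot settle whether replicate numbers pair the samples, and the main fit left them unpaired. With the replicate block the counts were 5 for TBI against Sham and 0 among the drugs.

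Leaving out 1 array gave 4 to 10 for TBI, 8 to 16 for imipramine, 4 to 11 for Prozac and 2 to 6 for Zoloft against Sham, 0 to 1, 0 to 0 and 0 to 1 for these drugs against TBI, and 0 to 2 among the drugs. Without 1 Sham array the other is assumed to vary like the other groups.

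Of 1348 refits of the 53 named values, 1102 kept direction and side of the threshold, 223 lost the call and 23 reversed. Cd63, Ctsc, Ctsz and Lgmn kept their TBI against Sham call in all 25 limma alternatives, Grn in 21, Cd68 in 20, Atp6v1a in 12 and Ctsb in 11. The methods' t-test is not among these refits, and after adjustment it called 0 of the 37 genes in TBI against Sham. The mean of both probes turned Atp6v1a to 0.0677. In the order normexp, quantile, 75th percentile over all probes, array medians and series table, Smpd1 against TBI turned to -0.0309, -0.0601, -0.119, -0.125 and -0.121 with imipramine and to -0.0295, -0.0563, -0.129, -0.134 and -0.136 with Prozac. Smpd1 with Zoloft turned to -0.0629 under normexp. Tfeb with imipramine turned to -0.0913, -0.0547, -0.0603 and -0.0559 in the last 4. With slide as a fixed block Tfeb turned to 0.254 with Prozac and 0.320 with Zoloft. Leaving out 1 array gave -0.0599 to 0.107 for Smpd1 with Prozac (below 0 without TBI replicate 1), -0.217 to 0.0813 for Tfeb with Prozac (above 0 without TBI replicate 3 or TBI+Prozac replicate 2) and -0.0311 to 0.170 for Asah1 with Zoloft (below 0 without TBI replicate 1 or TBI+Zoloft replicate 1). The cause of these changes was not tested. The number of arrays limits the precision, and a dim probe such as that of Gla bounds only how low a level can be read.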
